A study of Mus musculus with 16 samples.

Results

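The mark H3K9me3 was described over the part of mouse chromosome 10 that carries Grip1 and its neighbour Helb, in intestinal crypts with and without the chromatin remodeling factor Smarcad1. All H3K9me3 peaks overlapping a window of 1600 kb around both genes were taken, which gave 123 of the 212313 peaks in the series. The window was selected on a measured value, the H3K9me3 difference between KO and WT libraries at these genes, so that difference is given as a description. A fit over all peaks of the series also gave calls in the window; these use the same values and are no test of it. Of the 123 peaks, 93 overlapped Grip1 and 2 overlapped Helb, 1 of which overlapped both genes, and 29 lay outside both. The first peak past the left edge of the window (KO minus WT of -0.43 on the log2 scale) and the first past its right edge (-0.11) were not higher in KO.

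Chromatin immunoprecipitation with sequencing (ChIP-seq) was done for H3K9me2 and H3K9me3 on whole crypt isolates of the small intestine. All mice were C57BL/6, either wild type (WT) or with Smarcad1 deleted by a Cre recombinase under the Villin promoter (KO), which acts in intestinal epithelium, so that other cells of a crypt isolate keep the gene. There were 3 libraries per genotype for each mark, beside an input made from sonicated chromatin with no antibody step (1 per genotype and mark), which adds up to 16 libraries. The study speaks of biological replicates, but the labels do not tie a library to an animal, so the spread between libraries may be partly technical. The H3K9me3 libraries held from 7060313 to 11839196 reads in peaks. A peak with a lower value can come from fewer cells with the mark or from less of it per cell, which cannot be told apart in these bulk samples.

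H3K9me3, trimethylation of lysine 9 of histone H3, marks silent heterochromatin, where it is bound by HP1 proteins and written by the SUV39H and SETDB1 methyltransferases. H3K9me2 marks broader domains of silent chromatin and is written mainly by the G9a and GLP enzymes. Grip1 encodes a scaffold with many PDZ domains that holds AMPA glutamate receptors and ephrin ligands at neuronal membranes, and that also binds the matrix protein Fras1 in epithelia. Helb encodes a DNA helicase that binds the single-strand binding protein RPA and limits the resection of DNA ends.

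Grip1 (ENSMUSG00000034813) lay on the plus strand at chr10:119453830-120087261 in GRCm38 and was 633 kb long. Helb (ENSMUSG00000020228) lay on the minus strand at chr10:120083608-120112987, so that the last 3.65 kb of the genes overlapped. Peaks covered 70.2% of Grip1 and 73.8% of Helb. Cand1, Tmbim4 and Llph, the other protein-coding genes next to them, had no H3K9me3 peak, Irak3 had 3 and Hmga2 had 1.

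No H3K9me3 peak overlapped the RefSeq promoter of the long Grip1 transcript or that of Helb, whereas a peak of 750 bases covered the promoter of a shorter Grip1 transcript that starts inside the gene. RefSeq lists another Grip1 promoter further inside the gene, at chr10:119992672-119992971, which held 1 CG pair and overlapped no peak, and which is not printed. The other promoters are printed here from RefSeq (GRCm38.p6), from 250 bases before to 50 after the start, with each CG pair in capitals because it is the site of DNA methylation. The long Grip1 promoter at chr10:119453784-119454083 held 38 CG pairs, the inner Grip1 promoter with the peak, at chr10:119819139-119819438, held 7, and the Helb promoter at chr10:120112916-120113215 on the minus strand held 19. Of 32851 RefSeq promoters, 4.95% held at least 38, 52.1% at least 7 and 28.1% at least 19, and 94.6% held at least 1.
Grip1 long transcript promoter: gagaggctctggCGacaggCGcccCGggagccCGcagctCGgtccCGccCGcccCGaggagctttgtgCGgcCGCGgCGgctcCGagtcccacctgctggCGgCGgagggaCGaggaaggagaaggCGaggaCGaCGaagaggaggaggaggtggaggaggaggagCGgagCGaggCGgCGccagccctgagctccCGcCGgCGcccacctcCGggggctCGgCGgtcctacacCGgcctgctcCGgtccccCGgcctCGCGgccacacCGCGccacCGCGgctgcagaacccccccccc
Grip1 inner promoter: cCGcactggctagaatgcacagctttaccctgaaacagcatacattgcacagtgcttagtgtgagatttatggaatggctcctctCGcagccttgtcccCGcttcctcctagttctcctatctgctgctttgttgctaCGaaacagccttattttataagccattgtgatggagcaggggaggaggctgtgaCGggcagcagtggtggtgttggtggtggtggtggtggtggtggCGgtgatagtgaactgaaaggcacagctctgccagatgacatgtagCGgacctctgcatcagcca
Helb promoter: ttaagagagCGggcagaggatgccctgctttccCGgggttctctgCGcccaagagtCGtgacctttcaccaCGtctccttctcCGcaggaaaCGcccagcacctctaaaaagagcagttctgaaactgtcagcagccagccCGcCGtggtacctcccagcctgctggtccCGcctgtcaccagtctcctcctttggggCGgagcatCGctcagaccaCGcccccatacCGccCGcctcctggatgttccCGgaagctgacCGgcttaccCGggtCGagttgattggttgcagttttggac

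Near the 3′ end of Grip1, neighbouring peaks behaved differently, and the central 240 bases of 3 of them are shown on the plus strand for that reason, again from RefSeq and with CG in capitals. The peak at chr10:119985901-119986800, which overlaps a coding exon, had the largest KO minus WT difference in the window (1.70), beside a log2 KO to WT ratio of the inputs of 0.79. The peak at chr10:119994001-119995500 was at -0.09, and 97.1% of its central bases lay in annotated repeats. The peak at chr10:120009601-120010650 was at -0.66, the only Grip1 peak with every KO value below every WT value. The last of these also overlaps a coding exon. It was not called lower, and it held 33, 29 and 36 reads in WT and 9, 31 and 21 in KO, the fewest in KO replicate 1. The 1.70 peak held 14, 13 and 11 reads in WT and 25, 45 and 39 in KO. The centres of the 3 peaks held 8, 2 and 0 CG pairs, and 95.1% of the 123 peak centres held at least 1. The 2 peaks between the last 2 shown had differences of 1.09 and 1.60, with log2 input ratios of 0.73 and 0.10, and held 1 CG pair each in their centres. No relation between CG pairs and the difference was tested.
Centre of the 1.70 peak, chr10:119986231-119986470: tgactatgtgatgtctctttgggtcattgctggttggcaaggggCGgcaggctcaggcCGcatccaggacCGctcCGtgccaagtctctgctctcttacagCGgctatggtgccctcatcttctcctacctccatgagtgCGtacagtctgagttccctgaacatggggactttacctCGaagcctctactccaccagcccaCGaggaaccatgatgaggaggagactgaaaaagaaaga
Centre of the -0.09 peak, chr10:119994631-119994870: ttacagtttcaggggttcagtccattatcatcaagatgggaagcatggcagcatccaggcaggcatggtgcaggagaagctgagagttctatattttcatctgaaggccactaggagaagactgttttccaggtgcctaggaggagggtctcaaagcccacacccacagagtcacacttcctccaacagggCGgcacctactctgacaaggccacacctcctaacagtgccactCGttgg
Centre of the -0.66 peak, chr10:120010006-120010245: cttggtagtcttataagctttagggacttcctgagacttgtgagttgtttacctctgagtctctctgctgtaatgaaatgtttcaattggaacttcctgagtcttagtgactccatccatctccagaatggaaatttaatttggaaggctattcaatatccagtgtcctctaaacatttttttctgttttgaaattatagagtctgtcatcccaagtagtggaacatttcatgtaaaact

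Over Grip1 as a whole, the reads in its 93 peaks made up a larger share of all peak reads in every KO library than in any WT library. The summed level was 1176, 1117 and 659 reads per 1000000 reads in peaks (RPM) in WT replicates 1, 2 and 3, and 1313, 1581 and 1415 in KO replicates 1, 2 and 3. WT replicate 3 stood far below the other WT libraries, and KO replicate 1 was close to WT replicate 1. The means were 984 ± 283 in WT and 1436 ± 135 in KO (SD, n = 3 each), a ratio of 1.46, which fell to 1.25 when KO was set against WT replicates 1 and 2 alone. The inputs, treated in the same way, gave 1065 for WT and 1173 for KO, so the KO input was 1.10 times the WT input at these peaks. Counts had to be extrapolated in the highest peaks, and over the 77 Grip1 peaks counted without extrapolation, a choice made after seeing the data, the ratio was 1.58, or 1.35 against WT replicates 1 and 2.

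At Helb the order of the libraries was the same as at Grip1. The summed level over its 2 peaks was 84.9, 78.6 and 59.7 RPM in WT and 101, 122 and 118 in KO, with inputs at 53.1 for WT and 63.8 for KO. Again no KO library fell among the WT libraries, and WT replicate 3 was the lowest. The means were 74.4 ± 13.1 and 114 ± 10.9, a ratio of 1.53, or 1.39 against WT replicates 1 and 2. Counts were extrapolated in every library at the wider of the 2 peaks and in KO replicate 2 at the other. These sums, and the values over input and per kb taken from them, are therefore approximate, with no Helb peak counted without extrapolation.

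In the 29 flanking peaks the direction was the opposite. Their summed level was 158, 147 and 141 RPM in WT and 122, 136 and 128 in KO, with inputs at 125 and 136. Every KO library lay below every WT library, WT replicate 3 was close to WT replicate 2, and the ratio of the means was 0.867.

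**Figure D1:**
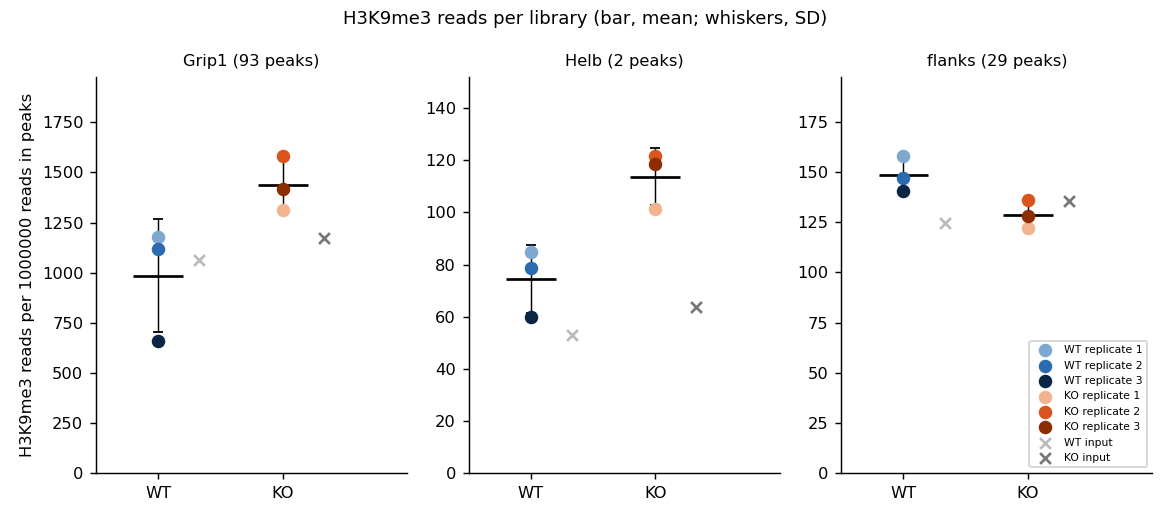
Summed H3K9me3 reads per 1000000 reads in peaks for the peaks of Grip1, of Helb and of the flanks (vertical axes from 0), with a dot per ChIP library, a bar for the mean, whiskers for the SD of 3 libraries and a cross for the input of each genotype. WT replicate 3 is the lowest WT dot in each panel, at 659 over Grip1, where it lies below the WT input at 1065.

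Per length, the mark was denser over Helb than over Grip1 in every library. Reads per kb of peak, scaled to 10000000 reads in peaks, ran from 14.5 to 34.7 over Grip1 and from 25.9 to 52.6 over Helb, against 24.2 over all peaks of the series. When each ChIP share was divided by the share in the input of its genotype, Grip1 stood at 1.10, 1.05 and 0.619 in WT and at 1.12, 1.35 and 1.21 in KO. A ratio of 1 is the average of all peaks, not the absence of the mark. By this measure KO replicate 1 and WT replicate 1 differed little at Grip1, while Helb stood at 1.60, 1.48 and 1.13 in WT and at 1.59, 1.91 and 1.86 in KO. Divided by input, KO replicate 1 therefore fell just below WT replicate 1 at Helb, and the groups overlapped there.

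Single peaks were compared on the log2 values of the deposited table, in which the ChIP libraries had been brought to 1 common distribution. Over the 93 Grip1 peaks the median level was 5.85, 5.75 and 5.14 in WT and 6.10, 6.47 and 6.20 in KO. Peak by peak, the KO minus WT difference had a median of 0.73 and ran from -0.66 to 1.70, and 90 of the 93 peaks were above 0. The median over all 212313 peaks was 0.03. For the 2 Helb peaks the differences were 0.68 and 0.62, and for the 29 flanking peaks the median was -0.15, with 22 below 0.

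At an adjusted p under 0.05 in limma, 64 of the 93 Grip1 peaks were called higher, as were both Helb peaks and 67 of the 123 peaks in the window. Over the whole series 0.252% of peaks were called higher and 2.46% lower. In the window 3 peaks, all flanking, were called lower. In 60 Grip1 peaks and both Helb peaks all KO values lay above all WT values, which held for 7.3% of all peaks. All KO values lay below all WT values in 7 flanking peaks and 1 Grip1 peak, against 8.21% of all peaks. Without WT replicate 3, 27 of the 93 Grip1 peaks and 28 of the 123 window peaks were called higher, with 0.166% higher and 1.69% lower over the series, and both Helb peaks were among the 28. All 27 were also among the 64. Without KO replicate 2, the highest library, 42 window peaks were called higher (0.172% of the series), and DESeq2 on the recovered read counts called 19 (0.0584% of the series), 18 over Grip1 and, at Helb, the second peak but not the first. Since the window was chosen on this contrast, nothing is read from these counts.

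**Figure D2:**
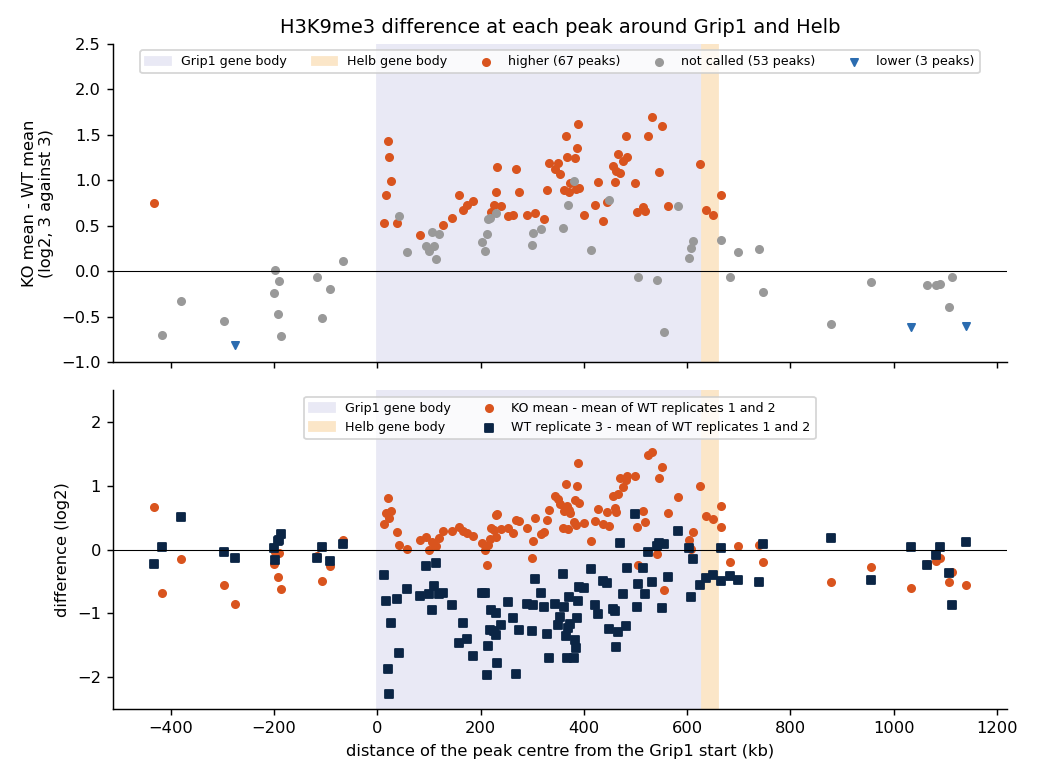
Each point is 1 of the 123 H3K9me3 peaks, placed by the distance of its centre from the Grip1 start in kb (horizontal axis). The upper panel gives KO minus WT means on the log2 scale with the call at an adjusted p under 0.05, and the lower panel gives KO (circles) and WT replicate 3 (squares) against the mean of WT replicates 1 and 2. Points within the shaded gene bodies lie above 0 in 90 of 93 Grip1 peaks in the upper panel, while the squares show WT replicate 3 below the other WT libraries over the same stretch.

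WT replicate 3 was low over most of Grip1. It was the lowest of the 6 libraries in 83 of the 93 peaks, against 34628 of the 212313 peaks of the series. Its median deviation from the mean of WT replicates 1 and 2 was -0.88, where the median over all peaks was 0.01. The deviation was -0.43 over the Helb peaks and -0.04 over the flanking peaks. Set against WT replicates 1 and 2 alone, KO was higher by a median of 0.42 over Grip1, and above 0 in 86 of 93 peaks. What set WT replicate 3 apart here was not tested.

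The difference was not even along the gene. From the Grip1 start to the inner start site, 366 kb downstream, 50 peaks had a median KO minus WT difference of 0.62, or 0.30 against WT replicates 1 and 2. There the summed levels were 859, 801 and 443 RPM in WT and 887, 1095 and 974 in KO, so KO replicate 1 exceeded WT replicate 1 by little. The inputs were at 745 for WT and 810 for KO. Divided by the share in the input of its genotype, WT stood at 1.15, 1.07 and 0.594 and KO at 1.10, 1.35 and 1.20. By this measure KO replicate 1 fell below WT replicate 1, and the groups overlapped in this stretch. From the inner start site to the end of the gene, 43 peaks had a median of 0.92, or 0.61 against WT replicates 1 and 2.

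In this second stretch the levels were 317, 315 and 216 RPM in WT and 425, 486 and 441 in KO, with inputs at 320 and 363. Every KO library was above its input and above every WT library, and no WT library was above the WT input. Against WT replicates 1 and 2 the KO mean was 1.42 times higher here and 1.19 times higher in the first stretch.

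**Figure D3:**
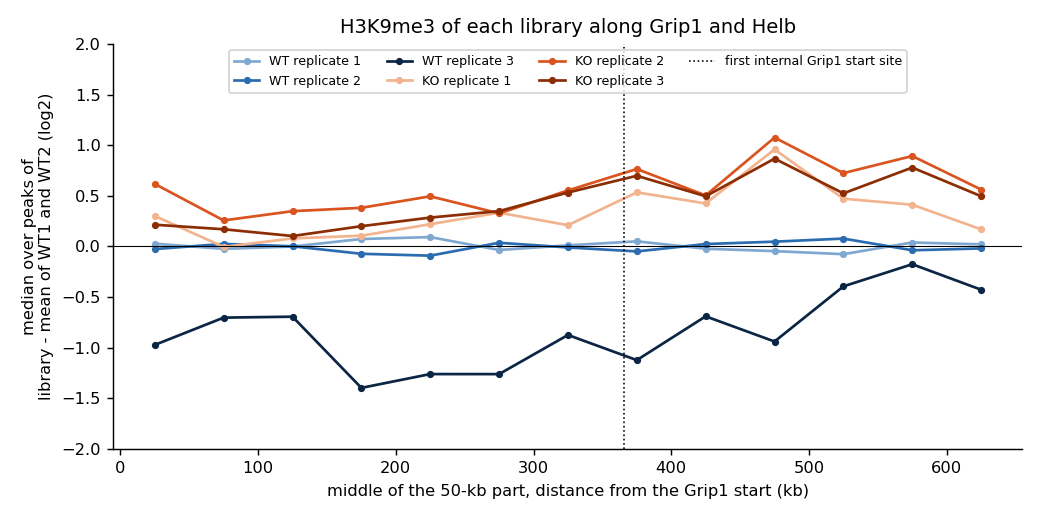
Median over the peaks of each 50-kb part of every library's log2 value minus the mean of WT replicates 1 and 2 (vertical axis), by the distance of the part's middle from the Grip1 start in kb (horizontal axis), 1 line per library. The KO lines stand furthest above the WT replicate 1 and 2 lines at 450 to 500 kb, past the inner start site (dotted line), and WT replicate 3 runs from -1.40 at 150 to 200 kb to -0.18 at 550 to 600 kb.

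Split into parts of 50 kb, KO against WT replicates 1 and 2 had its smallest median, 0.15, at 100 to 150 kb from the Grip1 start and its highest, 0.99, at 450 to 500 kb. At those parts WT replicate 3 deviated by -0.69 and -0.94. Its deviation was largest at 150 to 200 kb (-1.40), where the median KO difference was 0.73 against all WT libraries and 0.26 against WT replicates 1 and 2. At 550 to 600 kb it was smallest, at -0.18. No relation between this deviation and the KO difference over the parts was tested.

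On the left, the difference changed across a gap between peaks that spans the Grip1 start. The first Grip1 peak, chr10:119465251-119468550, began 11.4 kb after the start of the gene. Its values were 6.48, 5.96 and 5.82 in WT and 6.33, 6.70 and 6.83 in KO, a difference of 0.53 in which the groups overlapped. The peak after it, chr10:119468701-119472450, differed by 0.84. No peak lay in the 76.8 kb before them, and the nearest one upstream, chr10:119387701-119388450, differed by 0.11.

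On the right, the 2 Helb peaks ended 5.89 kb short of the Helb start. Past that start, the first peak, chr10:120118951-120119550, had all KO values above all WT values and differed by 0.35. The log2 KO to WT ratio of the inputs was 1.06 there. The peak after it, chr10:120119701-120121350, also had all KO values above all WT values. Its values were 5.41, 4.91 and 4.66 in WT and 5.94, 5.88 and 5.70 in KO, a difference of 0.84, where the log2 KO to WT ratio of the inputs was 0.63. Against WT replicates 1 and 2 it was 0.68. The next peak towards Irak3, chr10:120135601-120138600, had 6.57, 6.64 and 6.19 in WT and 6.13, 6.48 and 6.60 in KO, a difference of -0.06 with the groups mixed. Irak3, a kinase-like brake on Toll-like receptor signaling, had differences from -0.22 to 0.24 in its 3 peaks, and Hmga2, a chromatin protein of growing tissues, had -0.12 in 1 peak. From the first Grip1 peak to the second Helb peak the stretch was 642 kb long. Far from it, at the left end of the window, the peak chr10:119020801-119022150 over the predicted gene Gm47461 was at 5.02, 4.58 and 4.56 in WT and 5.15, 5.66 and 5.61 in KO, and its difference of 0.75 stood beside a log2 input ratio of 0.65.

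Among peaks with a mean of at least 5 on the log2 scale, the largest difference was in the peak chr10:120004651-120007800 of Grip1. It had 5.34, 5.72 and 4.61 in WT and 6.81, 6.87 and 6.78 in KO, so that each KO value was over 1 unit above each WT value, a difference of 1.60 (standard error 0.18). Next was the peak chr10:119934751-119936850, with 5.34, 4.81 and 3.88 in WT and 6.04, 6.30 and 6.16 in KO, a difference of 1.49. The other 4 of the 6 largest, all in Grip1, had differences from 1.19 to 1.30. Against WT replicates 1 and 2 the 6 differences ran from 0.50 to 1.29, and the lowest 2 of them, 0.50 and 0.63, were in the first stretch of the gene.

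The Helb peaks were wide and high. The first, chr10:120082201-120098250, spans the 3′ ends of both genes and was annotated to Grip1 in the deposited table. Its values were 9.25, 9.18 and 8.76 in WT and 9.65, 9.77 and 9.80 in KO (difference 0.68, standard error 0.08). The second, chr10:120100051-120107100, had 7.74, 7.80 and 7.36 in WT and 8.05, 8.41 and 8.31 in KO (difference 0.62, standard error 0.10). In both, all KO values were above all WT values. The KO input was also above the WT input at these peaks, by 0.29 and 0.20 on the log2 scale, and with that taken off the median difference fell from 0.65 to 0.40. Set over input, the first peak was at 0.76, 0.60 and 0.21 on the log2 scale in WT and at 0.73, 0.94 and 0.93 in KO, so that the groups overlapped. The second was at 0.45, 0.48 and 0.05 in WT and at 0.49, 0.89 and 0.78 in KO, with all KO values above all WT values and KO replicate 1 close to WT replicate 2.

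In 3 of the 93 Grip1 peaks the difference was below 0. The peak chr10:119994001-119995500 had 5.34, 5.51 and 5.49 in WT and 5.08, 5.33 and 5.64 in KO. Another, chr10:119958151-119959950 had 5.73, 5.64 and 5.14 in WT and 5.36, 5.84 and 5.14 in KO, a difference of -0.06. In neither did the groups separate. The lowest Grip1 peak, chr10:120009601-120010650, had 4.89, 4.91 and 4.98 in WT and 3.63, 4.73 and 4.42 in KO, and in it WT replicate 3 was not low.

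The widest peak in the window, chr10:119496601-119526450 in the 5′ part of Grip1, was 29850 bases long. Its values were 9.98, 9.92 and 9.33 in WT and 9.86, 10.12 and 9.90 in KO, a difference of 0.22 that became 0.01 against WT replicates 1 and 2. The second widest, chr10:119586751-119610150, had 9.11, 9.17 and 8.26 in WT and 9.38, 9.51 and 9.42 in KO, a difference of 0.59 that became 0.30 against WT replicates 1 and 2. The third, chr10:119629801-119650650, had 9.11, 9.19 and 7.47 in WT and 9.25, 9.50 and 9.35 in KO. Its difference of 0.78 became 0.22 against WT replicates 1 and 2.

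The peak over the inner Grip1 promoter, chr10:119818951-119819700, was the only one in the window over an annotated start site of a protein-coding transcript. It had 3.83, 3.40 and 2.25 in WT and 4.06, 5.02 and 4.87 in KO, with no overlap between the groups on this scale. It held few reads, 16, 10 and 6 in WT and 12, 38 and 29 in KO. Before the libraries were matched, KO replicate 1 thus had fewer reads here than WT replicate 1. The mean level of the peak was 3.91, below 5, and it was not called higher without WT replicate 3. The difference was 1.49 (standard error 0.36), or 1.03 against WT replicates 1 and 2. Of the 43 peaks past the inner start site, 9 overlapped a Grip1 exon. Those 9 had a median difference of 1.19, or 1.00 against WT replicates 1 and 2, and the 34 without an exon had 0.89, or 0.59. The exon peaks were shorter (median 1200 against 1800 bases) and richer in CG (18.8 against 12.7 pairs per kb). They were also lower in level, with a median of 4.60 against 5.40 on the log2 scale. No relation between exons and the difference was tested.

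In sequence, the Grip1 peaks had more CG pairs and fewer repeats than the average H3K9me3 peak. Their median was 12.8 CG pairs per kb, with 43.7% G and C and 16.2% repeat bases, against 5.24, 39.6% and 35.2% over all peaks. The flanking peaks were like them in CG pairs (11.9 per kb) and in G and C (44.2%), but 47.2% of their bases were repeats.

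Among peaks with a mean of at least 5 on the log2 scale, the 3 lowest differences were all in the flanks, at -277, -187 and 1032 kb from the Grip1 start, on either side of the genes. The peak chr10:119176801-119179500 had 7.02, 7.03 and 6.89 in WT and 6.07, 6.34 and 6.10 in KO. Its difference of -0.81 (standard error 0.13) was the lowest in the window. Here WT replicate 3 was level with the other WT libraries. The left flank had a median difference of -0.28 over 14 peaks and the right flank -0.14 over 15.

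Low values in WT replicate 3 were also seen at 3 other genes with many higher peaks. At Arl15, which encodes a small GTPase, the share over input was 0.999, 0.829 and 0.424 in WT and 1.55, 1.70 and 1.47 in KO. At Tiam1, an activator of the GTPase Rac, it was 2.00, 1.68 and 1.16 in WT and 1.54, 1.67 and 1.69 in KO, so that the groups overlapped. At Tcf4, a transcription factor of the E-protein family, it was 0.600, 0.528 and 0.421 in WT and 1.21, 1.53 and 1.33 in KO. Taking reads over peaks, the KO mean was 1.88 times that of WT replicates 1 and 2 at Arl15, 1.05 times at Tiam1 and 2.69 times at Tcf4, beside 1.25 at Grip1 and 1.39 at Helb. These genes were also picked for higher peaks in KO, and no difference between them and Grip1 was tested.

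**Figure D4:**
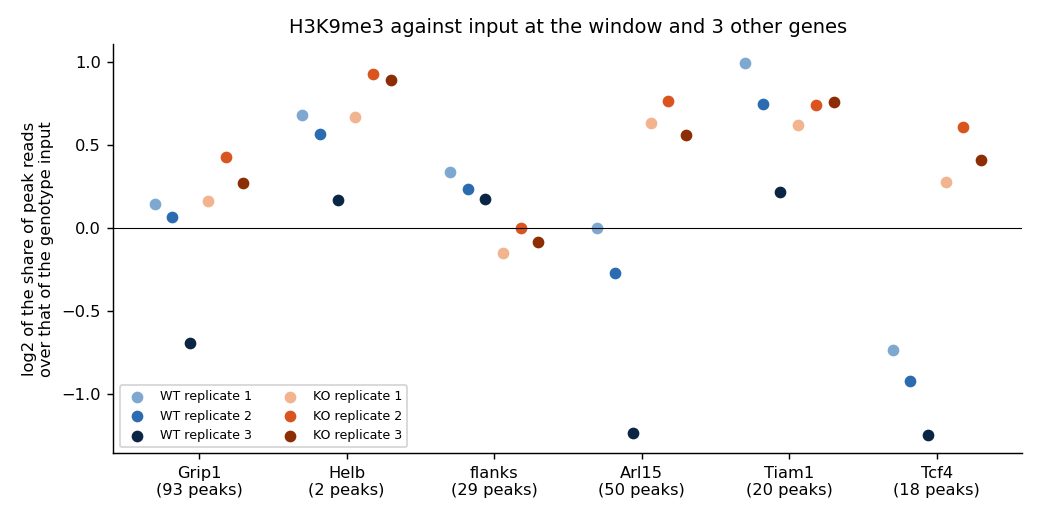
Log2 of the share of H3K9me3 peak reads over the share in the input of the same genotype (vertical axis) for the 6 libraries at Grip1, Helb, the flanking peaks and 3 other genes; 0 is the average of all peaks. WT replicate 3 is the lowest library at each of the 5 genes, at -0.69 over Grip1, and the KO libraries clear WT replicates 1 and 2 widely at Arl15 and Tcf4 and by little at Grip1.

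H3K9me2, which the choice of the window did not use, showed no change that passed the test. The window held 38 of 47065 H3K9me2 regions, 25 over Grip1, none over Helb and 3 over Irak3. The summed reads in the window were 181, 160 and 159 per 1000000 reads in regions (RPM) in WT and 171, 173 and 174 in KO, with inputs at 165 and 169. The KO values lay within the WT range, between WT replicate 1 and the other 2 WT libraries. The difference of 0.05 on the log2 scale had p = 0.4 in an exact two-sided permutation test of 3 against 3 libraries, where the smallest possible p is 0.1. Without WT replicate 1 every KO library was above both WT libraries, and the difference was 0.11 (exact permutation p = 0.1, the smallest that 3 against 2 libraries allow).

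Over Grip1 alone the H3K9me2 levels were 108, 94.9 and 95.3 in WT and 95.3, 101 and 102 in KO (log2 difference 0.0011, exact permutation p = 1). WT replicate 3 was level with WT replicate 2 for this mark. By region, edgeR's quasi-likelihood test called 0 of 38 at an adjusted p under 0.05, where the whole series had 1 call (0.00212%), and DESeq2 also called 0. At an unadjusted p under 0.05, 3 regions were higher and 1 lower, beside 1.6% higher and 1.52% lower over the series, and DESeq2 had 2 in all. The 3 Grip1 regions with the smallest p were at 401, 599 and 491 kb from the Grip1 start. The lowest, chr10:119855251-119859150, had 7.35, 6.84 and 5.95 RPM in WT and 5.59, 5.42 and 4.25 in KO (log2 fold change -0.43, edgeR adjusted p of 1.00). The second, chr10:120052951-120057600, had 5.76, 4.54 and 6.40 in WT and 5.74, 7.74 and 8.16 in KO (log2 fold change 0.36), and the groups overlapped. The other of the 3, chr10:119944951-119960550, had 13.2, 12.2 and 10.8 in WT and 13.4, 14.8 and 13.8 in KO (log2 fold change 0.19). Here every KO library was above every WT library, and the inputs were at 11.8 RPM for WT and 13.6 for KO. Inputs were at 6.40 for WT and 4.93 for KO at chr10:119855251-119859150, and at 5.80 and 4.85 at chr10:120052951-120057600. They thus differed in the direction of the ChIP values at chr10:119944951-119960550 and chr10:119855251-119859150, and in the opposite direction at chr10:120052951-120057600. Whether the ChIP differences go beyond those of the inputs was not tested.

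**Figure D5:**
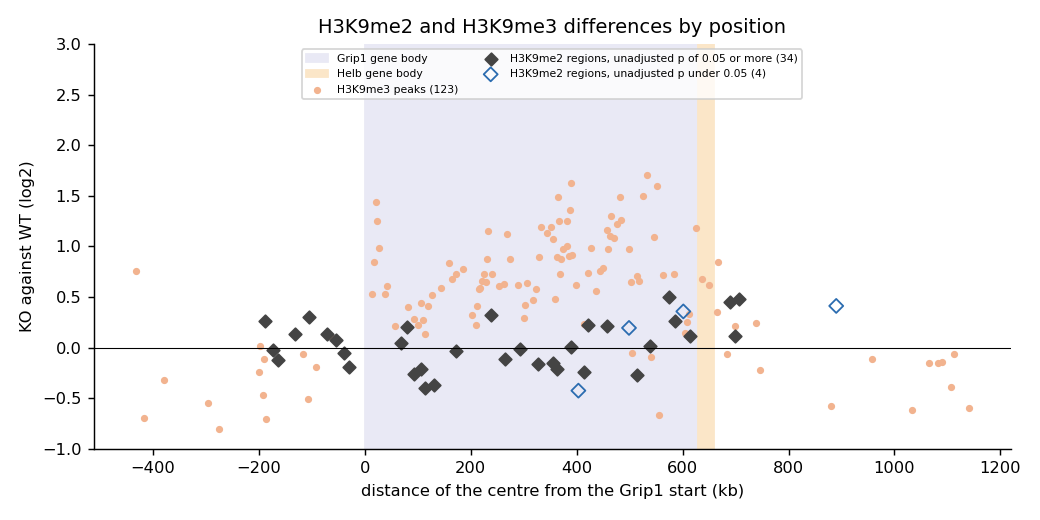
Log2 KO against WT values of the 38 H3K9me2 regions (diamonds; open where the unadjusted p was under 0.05, 4 regions) and, as a backdrop, of the 123 H3K9me3 peaks (dots), by distance from the Grip1 start in kb. The H3K9me2 regions spread around 0, between -0.43 and 0.50, over the stretch where most H3K9me3 dots are above 0.

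H3K9me3 at genes that work with Grip1 or Helb was tested in limma over all peaks, since the choice of the window did not use them. Of 21 partners of Grip1 (AMPA receptor subunits, the related scaffolds Grip2 and Pick1, liprins, kinesins, ephrins and their receptors, and the Fras1 and Frem matrix proteins), 9 had a peak, and 102 peaks were tested. None was called higher and 1 was called lower, beside the 0.252% and 2.46% of the series, and edgeR on the recovered counts also called 0 higher and 1 lower. At an unadjusted p under 0.05, limma had 5 higher and 3 lower, beside 4.07% higher and 6.75% lower over the series, and the median difference was 0.06. The lower peak, in Fras1, had 6.14, 5.80 and 5.65 in WT and 5.20, 5.33 and 5.18 in KO. Its log2 fold change was -0.63 ± 0.18 (SE), at a limma adjusted p of 0.042. The call was lost on leaving out any 1 library other than WT replicate 3. The receptor subunit genes Gria1, Gria2 and Gria4 had 9, 25 and 39 peaks, with median differences of -0.01, 0.05 and 0.06.

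Of 18 partners of Helb in replication and end resection, 4 had a peak, and 9 peaks were tested. In limma none was called higher and 1 was called lower, beside 0.252% higher and 2.46% lower over the series. The edgeR fit gave the same counts. At an unadjusted p under 0.05, limma had 0 higher and 5 of the 9 lower, against the 6.75% lower of the series, and the median difference was -0.35. The lower peak, in Rbbp8, which encodes the resection factor CtIP, had 5.02, 5.01 and 5.65 in WT and 3.93, 4.54 and 3.96 in KO. Its log2 fold change was -1.09 ± 0.25 (SE), at a limma adjusted p of 0.0054. It was not called without WT replicate 3, the highest WT library at that peak. The helicase genes Blm and Wrn had 1 and 5 peaks, with median differences of -0.52 and -0.30 and no call.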

How the data were processed

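Crypt chromatin of WT and KO mice was measured by ChIP-seq for both marks. The authors trimmed reads (Trim Galore 0.4.4), mapped them to GRCm38 (Bowtie2 2.3.2, per the submitters' processing notes), removed duplicates and called MACS peaks for each mark from its ChIP libraries jointly. For H3K9me3 the authors gave log2 reads per peak, with the 6 ChIP libraries matched to 1 distribution, so a global gain or loss cannot be seen; input columns were not matched. For H3K9me2 the deposited signal is a mean of reads over the peaks in each region. A shorter deposited table of H3K9me2 counts served as a check, and the authors' own p-values were not used.

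Read counts behind the H3K9me3 values were recovered from the ranks of the distinct values (99.56% of values within 0.002 log2); those above 185 to 436 reads, depending on the library, were extrapolated. H3K9me2 means were multiplied by the number of peaks. RPM values are relative to all reads in peaks of that library.

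H3K9me3 was fitted over all 212313 peaks with limma 3.58.1 (trend, no filter) and H3K9me2 over 47065 regions with edgeR 4.0.16 (quasi-likelihood, TMM), with Benjamini-Hochberg adjustment over all features, in R 4.3.3. In data simulated for each comparison with 200 changed features of 2-fold, 54% of changed H3K9me3 peaks (5 false calls among 212313) and 87.5% of changed H3K9me2 regions (3 false calls among 47065) were recovered. Alternatives were DESeq2 1.42.0, edgeR on recovered counts, stricter thresholds, a filter on low values, a replicate block, subtraction of input, and leaving out each library. Replicate numbers were not taken as pairs.

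Gene positions came from GENCODE M21 and sequences from RefSeq GRCm38.p6. Named peaks were the first and last higher peaks and their neighbours, the 6 largest and 3 smallest differences among peaks with a mean of at least 5 log2 (and, added later, the smallest within Grip1), the 3 widest, those over a start site and those of Helb. The peak of largest difference overall fell below that mean and was chosen after its value was seen. The window, the gene lists and the rules were chosen with earlier results of these data known.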

Additional observations from a re-analysis of the deposited data

How the results depend on the processing

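The calls in the window come from the contrast that chose it and are listed as counts only. The 67 higher H3K9me3 peaks became 19 with DESeq2 on recovered counts and ranged from 28 (without WT replicate 3) to 70 (without WT replicate 1) when 1 library was left out, with 42 without KO replicate 2. The cause was not tested. With DESeq2 the higher peaks spanned 638 kb and at an adjusted p under 0.01 they spanned 653 kb, against 1101 kb, since the lone peak at the left end of the window and the first Grip1 peak were not called, nor, with DESeq2, the peak past Helb; leaving out 1 library gave 638 to 1101 kb. With the replicate block 68 peaks were higher and 4 lower, so the block moved no H3K9me3 count of calls in the window by over 1.5 times. Deviations of same-numbered WT and KO libraries correlated at -0.0147 to 0.0090 for H3K9me3 and at 0.016 to 0.18 for H3K9me2, where WT replicate 2 correlated more with KO replicate 3 (0.068) than with its own number, so the pairing stayed unused. The median Grip1 difference of 0.73 ran from 0.42 (without WT replicate 3) to 0.95, and was 0.59 with the input ratio taken off. The Helb median of 0.65 fell to 0.40 with the input ratio taken off. The 3 lower peaks became 2 to 4, and the flanking median stayed below 0 under the 11 alternatives run. For H3K9me2, 0 regions were called under each of the 10 alternatives, with 8 regions at an unadjusted p under 0.05 in the replicate block, and the window difference stayed between 0.019 and 0.11 under the 9 run, with 0.05 and an exact p of 0.5 in the paired form. The single lower peak at Grip1 partners and the single one at Helb partners ranged from 0 to 1 when 1 library was left out. Depth limits single peaks, since the median peak held 23 to 38 reads.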

Other observations

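Among 829 genes with at least 10 peaks by the deposited annotation, Grip1 ranked 5 by the median KO minus WT difference, and 7 when KO was set against WT replicates 1 and 2. By how far WT replicate 3 fell from the mean of WT replicates 1 and 2 (median over peaks), it also ranked 5 from the lowest. The lower 4 were Tiam1 (-1.19), Mb21d2 (-1.07), Arl15 (-1.03) and the vomeronasal receptor gene Vmn2r97 (-0.95). Vmn2r97 had 0 of 15 peaks called higher and a median difference of 0.16, which was -0.10 against WT replicates 1 and 2. These orderings use the same libraries that led to the choice of the window and are descriptions.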
